A study of Mus musculus with 8 samples.

Results

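The lipid-associated macrophage genes are 9 genes that macrophages loaded with lipid are known to express together, in obese adipose tissue, in atherosclerotic plaques, in fatty liver and in the microglia of the diseased brain. They were chosen by name: Trem2, Tyrobp, Gpnmb, Spp1, Fabp4, Fabp5, Lpl, Lgals3 and Plin2. All 9 were found among the 47937 gene IDs that the tables list, and all 9 had enough reads to be tested. Their expression was measured in bone marrow-derived dendritic cells (BMDCs), which are bone marrow cells of mice grown for 8 days in granulocyte-macrophage colony-stimulating factor (GM-CSF), a cytokine that yields a mixture of dendritic cells and macrophages.

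Messenger RNA of 8 libraries was sequenced, 2 in each of 4 groups. The 3xGrk-/- cells, labelled Grk 3xKO, came from bone marrow of Vav-iCre mice that carry floxed alleles of Grk2 and Grk6 (fl/fl) and are Grk3-/-, and the WT cells from mice without Cre. The Vav promoter drives Cre from early blood cell precursors onwards, so that Grk2 and Grk6 are removed in blood-forming cells, whereas Grk3 is deleted in the germ line. The mice were adult, and the strains were bred on C57BL6/J. Cells of each genotype were left unstimulated or received 20 ng/ml lipopolysaccharide (LPS), a component of bacterial walls that matures dendritic cells, for 24 h. GRK2, GRK3 and GRK6 are G-protein coupled receptor kinases, and the cells of both genotypes shared the GM-CSF culture. The sources used here do not say whether the libraries of a group came from separate mice or cultures, and the study's methods give technical triplicates for the RNA, so that p-values measure the spread between these libraries, which may be technical. This spread was small. Over genes with at least 20 counts in a pair, the median chi-square between the 2 libraries of a group was 0.526 in unstimulated WT, 0.547 in unstimulated 3xGrk-/-, 0.594 in LPS-stimulated 3xGrk-/- and 0.874 in LPS-stimulated WT cells, where counting error alone gives 0.455. For the typical gene the spread in 3 of the 4 groups was thus little above counting error, although the mean chi-square was 1.59 to 9.02 against 1 for counting error alone, and small p-values do not cover differences between mice or cultures.

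TREM2 is a receptor of myeloid cells for lipids, lipoproteins and dying cells, and it signals through the adaptor DAP12, the product of Tyrobp. Macrophages that take up lipid through such receptors break down lipoprotein triglycerides, carry fatty acids on binding proteins, store them in droplets and load their lysosomes, and they secrete osteopontin and galectin-3. In GM-CSF cultures of bone marrow, macrophages and dendritic cells arise side by side.

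Each library held 4713305 to 6933358 reads on genes. Levels are given in CPM, which are counts scaled to a library total of 1000000 reads with the trimmed mean of M values (TMM). A difference is a log2 fold change from edgeR's quasi-likelihood test, with its standard error (SE). A gene was called where its p-value, adjusted over all genes tested by Benjamini-Hochberg, was under 0.05. Of the targeted kinases, Grk2 had 1676 and 2290 counts in unstimulated WT and 1011 and 842 in unstimulated 3xGrk-/- libraries, and Grk6 had 447 and 595 against 247 and 213. Grk3 had 1767 and 2431 against 1786 and 1514, and its log2 fold change was -0.36 (SE 0.0440). All 3 were called lower in 3xGrk-/- cells in both stimulations. Reads were counted over whole genes, so that transcripts without the deleted exons can still count. Whether the remaining reads come from such transcripts was not tested. At the protein level, the study reports that BMDCs of these mice had lost the expressed GRKs almost completely.

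The stretches of DNA around the transcription start hold letters that regulators of these genes are known to bind, and they are given for the 3 genes with the largest differences between genotypes and for Plin2. Each line holds 280 bases 5′ to 3′ on the strand of the gene, from 250 bases before the start to 30 bases after it, taken from RefSeq (GRCm38.p6). Capitals mark a match to a motif searched on both strands, and positions count 1 as the first transcribed base and -1 as the base before it.
Trem2: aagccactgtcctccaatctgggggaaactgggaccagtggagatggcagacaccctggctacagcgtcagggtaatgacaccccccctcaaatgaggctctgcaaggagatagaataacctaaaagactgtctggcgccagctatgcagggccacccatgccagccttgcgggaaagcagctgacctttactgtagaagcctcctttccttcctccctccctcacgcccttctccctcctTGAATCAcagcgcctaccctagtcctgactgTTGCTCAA
Gpnmb: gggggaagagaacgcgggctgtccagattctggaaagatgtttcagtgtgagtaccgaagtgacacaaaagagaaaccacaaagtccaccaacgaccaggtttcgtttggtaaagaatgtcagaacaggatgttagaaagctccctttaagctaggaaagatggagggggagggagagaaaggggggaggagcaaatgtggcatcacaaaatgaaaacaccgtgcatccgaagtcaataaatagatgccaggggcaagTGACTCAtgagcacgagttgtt
Spp1: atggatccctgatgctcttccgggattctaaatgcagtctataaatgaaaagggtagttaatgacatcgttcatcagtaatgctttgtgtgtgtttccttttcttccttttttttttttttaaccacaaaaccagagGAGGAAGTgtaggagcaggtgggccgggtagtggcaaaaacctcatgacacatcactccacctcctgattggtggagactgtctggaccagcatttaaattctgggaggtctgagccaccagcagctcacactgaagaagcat
Plin2: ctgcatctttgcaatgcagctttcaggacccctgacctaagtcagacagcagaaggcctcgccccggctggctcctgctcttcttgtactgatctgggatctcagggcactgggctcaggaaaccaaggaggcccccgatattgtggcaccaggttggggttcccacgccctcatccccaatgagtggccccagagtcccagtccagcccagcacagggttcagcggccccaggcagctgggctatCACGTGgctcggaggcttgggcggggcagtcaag
The Trem2 line is chr17:48346151-48346430 (+), the Gpnmb line chr6:49036268-49036547 (+), the Spp1 line chr5:104434861-104435140 (+) and the Plin2 line chr4:86670030-86670309 (-). The capitals of Plin2 are CACGTG, the E-box letters that MITF and TFEB are known to bind, at -4 to 2. Among 32851 promoters of the same length, 6.79% held these letters. TGANTCA, with any base at N, is a loose form of the letters of AP-1 sites, which mostly hold C or G there. It read TGAATCA at -9 to -3 in Trem2 and TGACTCA at 9 to 15 in Gpnmb. This loose form was present in 7.46% of all promoters. The second stretch in capitals of Trem2, at 23 to 30, matches TTGCNNAA, the letters of C/EBP sites, which 10.4% of promoters held. The capitals of Spp1 are GAGGAAGT, letters of PU.1 sites, at -113 to -106, and 2.82% of promoters held them. The direct repeat with 1 base as its spacer that PPARG is known to bind was in 0.0365% of promoters and in none of the 6 windows of members. RefSeq windows were matched for 5 of the 9 genes, which were Trem2, Gpnmb, Spp1 with 2 starts, Lgals3 and Plin2. The second Spp1 window held a C/EBP match at -156 to -149, and the Lgals3 window held none of the motifs. A match of letters is a description of the sequence and was not tested as a site.

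In unstimulated cells all 9 genes were called higher in 3xGrk-/- than in WT BMDCs, and 8 of them, all but Fabp4, also with DESeq2 and without the second unstimulated 3xGrk-/- library. Spp1, Gpnmb and Trem2 showed the largest differences, with levels 8.89-fold, 8.85-fold and 7.30-fold higher, followed by Lpl with 4.999-fold. Fabp4, Plin2, Lgals3, Tyrobp and Fabp5 differed by 2.04-fold or less. After LPS 8 of the 9 were higher in 3xGrk-/- cells, by 2.23-fold for Tyrobp up to 34.7-fold for Spp1, and Fabp5 was lower. Over all genes tested, 22.1% were called higher in unstimulated and 24.7% in LPS-stimulated 3xGrk-/- cells, and 22.7% and 24% were called lower. Each 3xGrk-/- library lay above both WT libraries for all 9 genes without LPS, as for 34.3% of all genes, and for 8 genes with LPS, as for 35.8% of all genes. For Fabp5 with LPS both lay below, as for 36.9%. With a coefficient of variation of 0.4 set for every gene, far above the 0.0306 and 0.0573 common to these libraries, Trem2, Gpnmb, Spp1 and Lpl were still called higher without LPS, against 1.62% of all genes, and Trem2, Gpnmb, Spp1 and Lgals3 with LPS, against 4.81%. The median log2 fold change of the 9 genes was 1.03 without and 1.72 with LPS, and the median over all genes was -0.0017 and -0.0066. In RNA of whole cultures, more cells of a type and more RNA of a gene per cell cannot be told apart.

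The 9 genes together took 0.442% and 0.443% of the reads in unstimulated WT and 1.017% and 1.009% in unstimulated 3xGrk-/- libraries. With LPS the shares were 0.269% and 0.278% in WT and 0.849% and 0.829% in 3xGrk-/- libraries. The sum was thus higher in each 3xGrk-/- library than in any WT library, but its make-up differed. In unstimulated WT cells Lgals3 gave 44.3% of the members' reads in both libraries. In unstimulated 3xGrk-/- cells Lpl was the main contributor with 33.2% and 33.8%. After LPS, Fabp5 gave 62.0% and 62.7% in WT, whereas Gpnmb gave 43.3% and 43.9% in 3xGrk-/- cells.

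**Figure D1:**
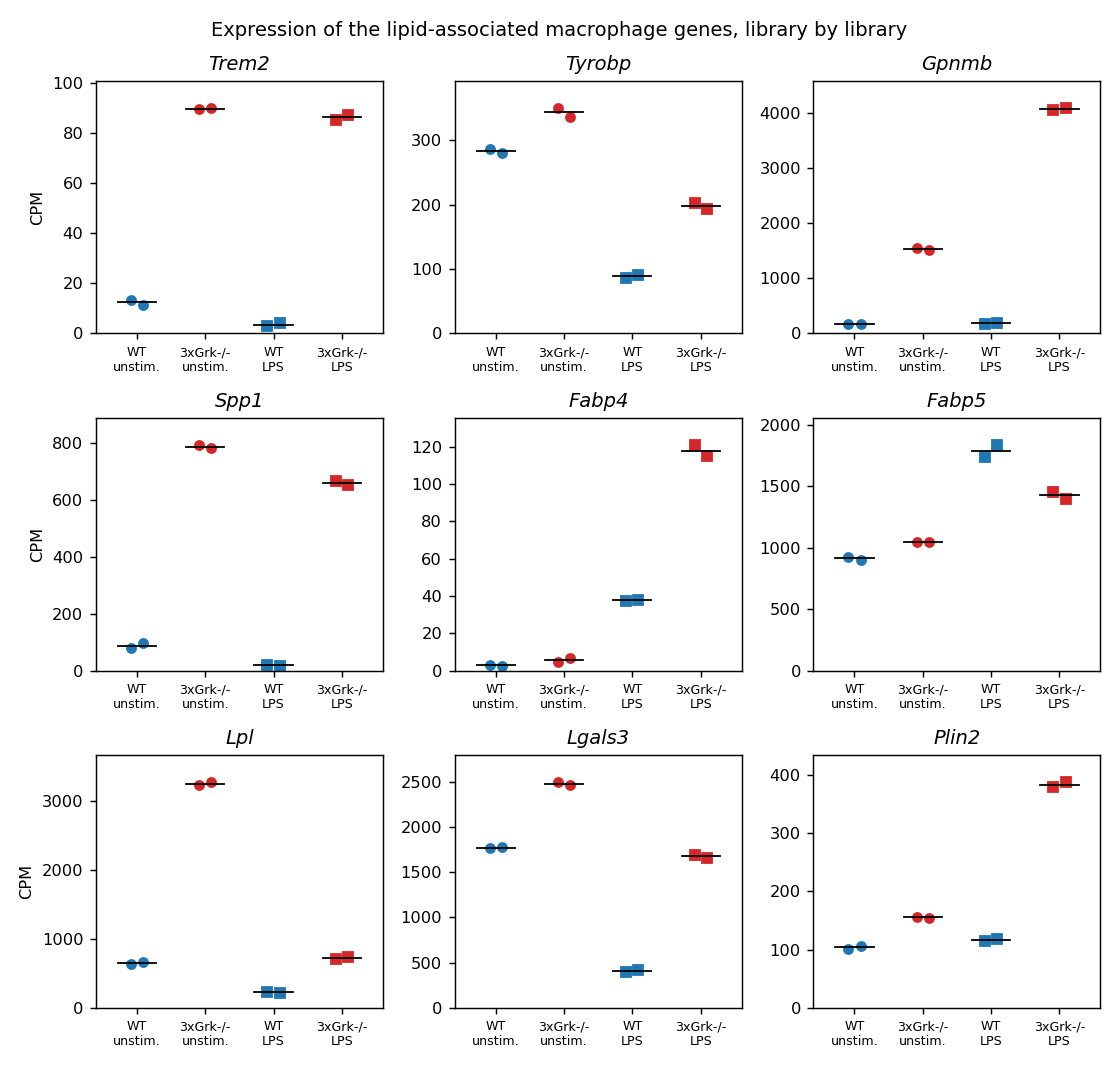
Level of each gene (CPM, y axis from 0 in every panel) in the 4 groups (x axis). Each point is 1 library and the black line is the mean of the 2. Gpnmb reached 4050.0 and 4088 CPM in LPS-stimulated 3xGrk-/- libraries and stayed between 171 and 187 CPM in all WT libraries.

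**Figure D2:**
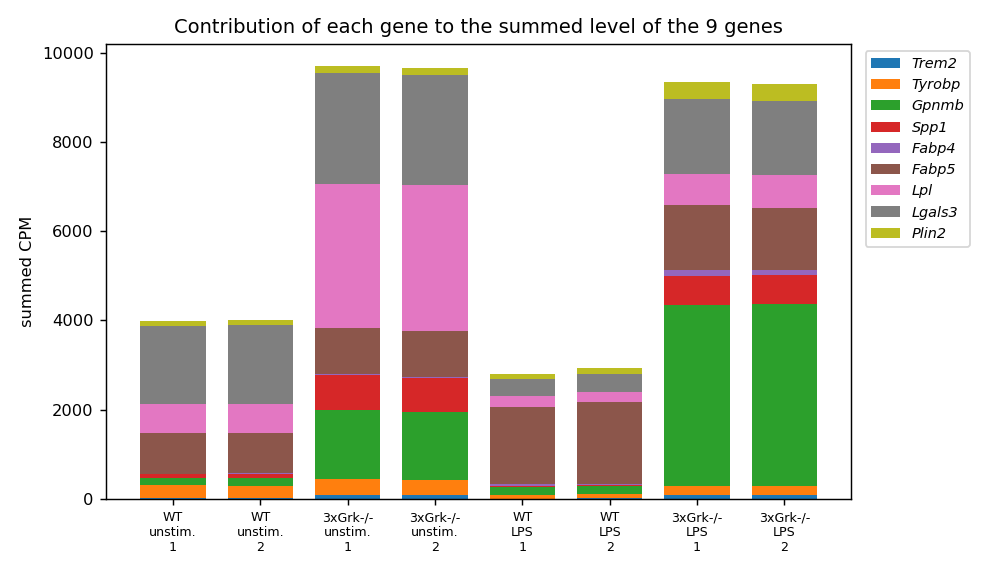
Summed CPM of the 9 genes (y axis) in each of the 8 libraries (x axis), with 1 colour per gene. The sum was 3984 and 4012 CPM in unstimulated WT libraries, 9722 and 9670 CPM in unstimulated 3xGrk-/-, 2806 and 2927 CPM in LPS-stimulated WT and 9362 and 9316 CPM in LPS-stimulated 3xGrk-/- libraries.

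Trem2 encodes the lipid receptor itself and lies on chromosome 17 (48346401 to 48354147, plus strand, GRCm38). It had 13.4 and 11.5 CPM in unstimulated WT libraries and 89.6 and 90.1 CPM in unstimulated 3xGrk-/- libraries, so that the log2 fold change came to 2.87 (adjusted p = 2.97e-152, SE 0.108). After LPS it had 3.08 and 4.02 CPM in WT, from 17 and 26 counts, and 85.4 and 87.6 CPM in 3xGrk-/- libraries, a log2 fold change of 4.58 (adjusted p = 3.54e-16, SE 0.1498). The 3xGrk-/- libraries lay far above the WT libraries in both stimulations. LPS lowered Trem2 in WT cells, with a log2 fold change of -1.77 (adjusted p = 3.11e-08, SE 0.212). In 3xGrk-/- cells the log2 fold change was -0.05 (adjusted p = 0.582, SE 0.0788), which was not called, and it was -0.27 (adjusted p = 0.00432) when the libraries were scaled by their size only. The difference between the 2 responses was 1.72 on the log2 scale (adjusted p = 6.61e-07, SE 0.228).

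Tyrobp (chromosome 7, 30413760 to 30417585, plus strand) encodes DAP12, the membrane adaptor that carries the signal of TREM2 and of several other myeloid receptors to the kinase SYK. It had 286 and 281 CPM in unstimulated WT libraries and 350 and 336 CPM in unstimulated 3xGrk-/- libraries. LPS brought it to 86.4 and 91.1 CPM in WT and to 203 and 193 CPM in 3xGrk-/- libraries. Tyrobp thus fell in both genotypes and stayed higher in 3xGrk-/- cells. The genotypes differed by 0.28 without LPS (adjusted p = 1.31e-09, SE 0.0436) and by 1.15 with LPS (adjusted p = 2.21e-11, SE 0.0727) on the log2 scale. The ratio of Trem2 to Tyrobp counts, which is not corrected for length, was 0.0468 and 0.0409 in unstimulated WT and 0.256 and 0.268 in unstimulated 3xGrk-/- libraries. After LPS it was 0.0357 and 0.0441 in WT and 0.422 and 0.453 in 3xGrk-/- libraries, so that receptor transcripts were more frequent relative to adaptor transcripts in all 3xGrk-/- libraries. Per kilobase of annotated exon, Tyrobp remained the more abundant, with 297 CPM per kilobase against 17.5 for Trem2 in LPS-stimulated 3xGrk-/- cells.

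Gpnmb (chromosome 6, 49036546 to 49070929, plus strand) encodes a glycoprotein of lysosomes and melanosomes that rises in macrophages with loaded lysosomes. It had 171 and 175 CPM in unstimulated WT libraries and 1556 and 1512 CPM in unstimulated 3xGrk-/- libraries, a log2 fold change of 3.15 (SE 0.0396) and an adjusted p printed as 0, below what edgeR can resolve. After LPS the levels were 177 and 187 CPM in WT and 4050.0 and 4088 CPM in 3xGrk-/- libraries, a log2 fold change of 4.48 (adjusted p = 3.36e-22, SE 0.0588). LPS raised Gpnmb in 3xGrk-/- cells by 1.41 (adjusted p = 3.04e-21, SE 0.0427) on the log2 scale. In WT cells the log2 fold change was 0.07 (adjusted p = 0.209, SE 0.0479), and its sign turned with the scaling, since it was -0.14 (adjusted p = 0.0122) with library sizes only. The responses differed by 1.34 (adjusted p = 1.14e-15, SE 0.0638).

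Spp1 (chromosome 5, 104435118 to 104441050, plus strand) encodes osteopontin, a secreted phosphoprotein that binds integrins and CD44. Its level was 79.3 and 95.7 CPM in unstimulated WT libraries and 792 and 780.2 CPM in unstimulated 3xGrk-/- libraries. After LPS it was 20.9 and 17.3 CPM in WT and 666 and 652 CPM in 3xGrk-/- libraries. With a log2 fold change of 5.11 (adjusted p = 9.03e-21, SE 0.0859), Spp1 had the largest difference between genotypes of the 9 genes after LPS. Without LPS the log2 fold change was 3.15 (SE 0.0472). With LPS the log2 fold change of Spp1 was -2.21 (adjusted p = 1.49e-17, SE 0.0965) in WT and -0.25 (adjusted p = 0.000519, SE 0.0581) in 3xGrk-/- cells. The difference of 1.96 between the responses (adjusted p = 8.76e-14, SE 0.114) was also the largest of the 9. A predicted gene on the same strand, Gm42793, overlaps Spp1 and had at most 9 counts in any library.

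Lgals3 (chromosome 14, 47367751 to 47386160, plus strand) encodes galectin-3, a lectin that binds galactosides on cell surfaces and on damaged lysosomes. It had 1766 and 1777 CPM in unstimulated WT libraries and 2497 and 2472 CPM in unstimulated 3xGrk-/- libraries, and after LPS 394 and 418 CPM in WT and 1693 and 1660.0 CPM in 3xGrk-/- libraries. The log2 fold change between genotypes was 0.49 (adjusted p = 2.93e-63, SE 0.0286) without and 2.04 (adjusted p = 2.21e-17, SE 0.0567) with LPS. LPS-stimulated 3xGrk-/- cells and unstimulated WT cells were not called apart, with a difference of 0.08 on the log2 scale (adjusted p = 0.0969). The log2 fold change with LPS was -2.12 (adjusted p = 6.69e-25, SE 0.0442) in WT and -0.57 (adjusted p = 2.25e-12, SE 0.0417) in 3xGrk-/- cells.

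Lpl (chromosome 8, 68880491 to 68907448, plus strand) encodes lipoprotein lipase, which frees fatty acids from the triglycerides of lipoproteins. It had 641 and 659 CPM in unstimulated WT libraries and 3232 and 3270.5 CPM in unstimulated 3xGrk-/- libraries, a log2 fold change of 2.32 (SE 0.0308) and an adjusted p printed as 0, below what edgeR can resolve. After LPS it had 233 and 218 CPM in WT and 707 and 736 CPM in 3xGrk-/- libraries, a log2 fold change of 1.68 (adjusted p = 3.32e-15, SE 0.0628). LPS lowered it in both genotypes, with a log2 fold change of -1.53 (adjusted p = 6.76e-21, SE 0.0475) in WT and -2.17 (adjusted p = 6.16e-25, SE 0.0459) in 3xGrk-/- cells. The difference between the responses was -0.64 (adjusted p = 5.12e-09, SE 0.0646). Lpl was the member whose genotype difference was smaller after LPS although its direction was the same.

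Fabp4 and Fabp5 encode cytoplasmic fatty acid binding proteins and lie on chromosome 3, Fabp4 at 10204088 to 10208576 on the minus strand and Fabp5 at 10012548 to 10016607 on the plus strand. Fabp4 was low without LPS, with 16 and 19 counts in WT and 32 and 40 counts in 3xGrk-/- libraries, or 3.06 and 2.66 against 4.79 and 6.95 CPM. Its log2 fold change was 1.03 (adjusted p = 0.00125, SE 0.290). This call was lost with DESeq2 (adjusted p = 0.182) and without the second unstimulated 3xGrk-/- library, where the log2 fold change was 0.76 (adjusted p = 0.0994). LPS raised Fabp4 to 37.4 and 37.9 CPM in WT and to 121 and 115 CPM in 3xGrk-/- libraries, and the genotypes then differed by 1.65 on the log2 scale (adjusted p = 1.81e-12, SE 0.0893). The log2 fold change with LPS was 3.72 (adjusted p = 1.86e-16, SE 0.182) in WT and 4.34 (adjusted p = 1.64e-21, SE 0.128) in 3xGrk-/- cells. Fabp4 was the single member whose responses were not called different, at 0.62 (adjusted p = 0.130, SE 0.304).

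Fabp5 was abundant in all libraries, with 924 and 903 CPM in unstimulated WT libraries and 1044 and 1049 CPM in unstimulated 3xGrk-/- libraries. After LPS it had 1740.2 and 1836 CPM in WT and 1457 and 1397 CPM in 3xGrk-/- libraries. The order of the genotypes was thus reversed, with a log2 fold change of 0.20 (adjusted p = 3.90e-08, SE 0.0339) without and -0.33 (adjusted p = 2.40e-05, SE 0.0524) with LPS. LPS raised it by 0.97 in WT (adjusted p = 3.80e-17, SE 0.0440) and by 0.45 in 3xGrk-/- cells (adjusted p = 8.93e-10, SE 0.0437) on the log2 scale. Fabp5l2, a processed pseudogene with a similar sequence, had at most 5 counts per library.

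Plin2 (chromosome 4, 86648386 to 86670060, minus strand) encodes perilipin 2, the protein that coats lipid droplets in most cells. It had 101 and 106 CPM in unstimulated WT libraries and 157 and 154 CPM in unstimulated 3xGrk-/- libraries, and after LPS 115 and 118 CPM in WT and 380 and 388 CPM in 3xGrk-/- libraries. The log2 fold change between genotypes was 0.58 (adjusted p = 4.70e-22, SE 0.0582) without and 1.72 (adjusted p = 2.66e-15, SE 0.0636) with LPS. LPS raised Plin2 in 3xGrk-/- cells by 1.30 (adjusted p = 4.83e-18, SE 0.0542). In WT cells the log2 fold change was 0.16 (adjusted p = 0.0258, SE 0.0623), and it was -0.05 (adjusted p = 0.490) with library sizes only, so that its direction there depends on the scaling. With edgeR and the main scaling the call was also lost without a filter on low counts (adjusted p = 0.0916), with at least 10 counts in every library (adjusted p = 0.0680) and with only the 4 WT libraries (adjusted p = 0.0794). It was lost as well without the first unstimulated (adjusted p = 0.189) or the second LPS-stimulated (adjusted p = 0.0720) WT library, and with DESeq2 (adjusted p = 0.117). Plin3, another droplet coat gene, had log2 fold changes of 0.25 and 0.28 between genotypes, and the ratio of Plin2 to Plin3 counts was 1.18 and 1.16 in unstimulated WT and 1.47 and 1.48 in unstimulated 3xGrk-/- libraries. With LPS this ratio was 1.28 and 1.31 in WT and 3.45 and 3.59 in 3xGrk-/- libraries.

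**Figure D3:**
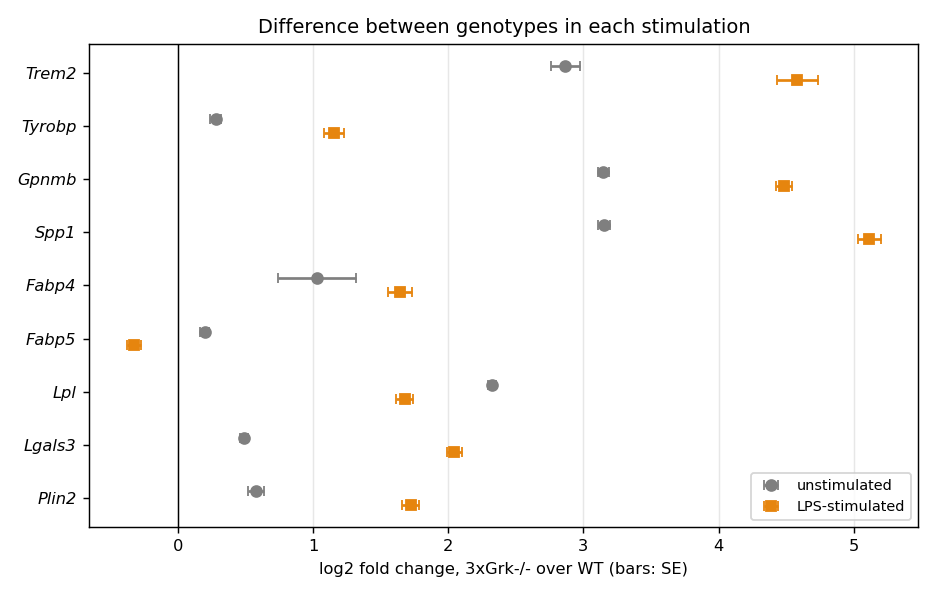
Log2 fold change of 3xGrk-/- over WT (x axis) for each gene (y axis), in unstimulated (grey circles) and LPS-stimulated cells (orange squares), with bars for the SE. The values lie between 0.20 for Fabp5 and 3.15 for Spp1 without LPS, and between -0.33 for Fabp5 and 5.11 for Spp1 with LPS.

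Per kilobase of annotated exon, which allows levels of different genes to be compared, Lgals3 was the most abundant member in 3 of the 4 groups, with 953 CPM per kilobase in unstimulated WT, 1337 in unstimulated 3xGrk-/- and 902 in LPS-stimulated 3xGrk-/- cells. Fabp5 led in LPS-stimulated WT cells with 501 CPM per kilobase, where Lgals3 had 219. In LPS-stimulated 3xGrk-/- cells Gpnmb followed Lgals3 with 625 CPM per kilobase, after 27.9 in LPS-stimulated WT cells. Fabp4 was the least abundant in both unstimulated groups, with 0.64 and 1.31 CPM per kilobase in WT and 3xGrk-/- cells. Trem2 was the least abundant in both LPS-stimulated groups, with 0.72 and 17.5. The exon length covers all annotated transcripts and spans the whole gene for Fabp4, so that levels of that gene are understated on this scale.

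The order of the 4 groups was not the same for all members. Trem2 and Spp1 were ordered, from high to low, as unstimulated 3xGrk-/-, LPS-stimulated 3xGrk-/-, unstimulated WT and LPS-stimulated WT, and Lpl shared this order. The 2 highest groups were not called apart for Trem2 (adjusted p = 0.582). Tyrobp and Lgals3 were highest in unstimulated 3xGrk-/- and lowest in LPS-stimulated WT cells, with unstimulated WT second. Gpnmb and Plin2 were highest in LPS-stimulated and next in unstimulated 3xGrk-/- cells, and their WT groups came last. Fabp4 was highest in both LPS-stimulated groups, and Fabp5 in LPS-stimulated WT cells. Neighbours in these orders differed with an adjusted p under 0.05 in the fit of 8 libraries, except for the Trem2 pair, the WT groups of Gpnmb (adjusted p = 0.209) and unstimulated WT against LPS-stimulated 3xGrk-/- cells for Lgals3 (adjusted p = 0.0969).

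LPS moved the members in different directions, and the question of the contrast was whether GRK deficiency alters the response to maturation. In WT cells 3 members were called higher with LPS, which were Fabp4, Fabp5 and Plin2, and 5 were called lower, which were Trem2, Tyrobp, Spp1, Lpl and Lgals3. Over all genes tested, 29.5% were called higher and 30.8% lower in WT. In 3xGrk-/- cells Gpnmb, Fabp4, Fabp5 and Plin2 were called higher and Tyrobp, Spp1, Lpl and Lgals3 lower, against 28% and 27.4% of all genes. The call of Plin2 in WT was the one lost with DESeq2 and other filters, as given above for that gene. With a coefficient of variation of 0.4 set for every gene, Fabp4 was called higher and Spp1 and Lgals3 lower in WT, against 3.6% and 5.25% of all genes. In 3xGrk-/- cells Fabp4 was then called higher and Lpl lower, against 4.4% and 2.38%. The median log2 fold change of the members was -1.53 in WT and -0.05 in 3xGrk-/- cells. The interaction, which is the response in 3xGrk-/- minus that in WT cells, was called above 0 for 6 members and below 0 for Fabp5 and Lpl, against 16.5% and 16% of all genes, and its median was 1.14. With a coefficient of variation of 0.4 set for every gene, edgeR called the interaction for 0 of the 9 members, against 0.486% of all genes above and 0.0877% below 0, and 2 members, Trem2 and Spp1, had an unadjusted p under 0.05. DESeq2 called the same 8 members. These contrasts share libraries with the genotype comparisons. With library sizes in place of TMM the median of all genes moved by -0.21 in WT and -0.22 in 3xGrk-/- cells, and the share of calls that were higher fell from 49.0% to 31.1% and from 50.5% to 30.2%. In the unstimulated genotype comparison the same share fell from 49.3% to 35.8%, and the 9 members stayed called higher.

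**Figure D4:**
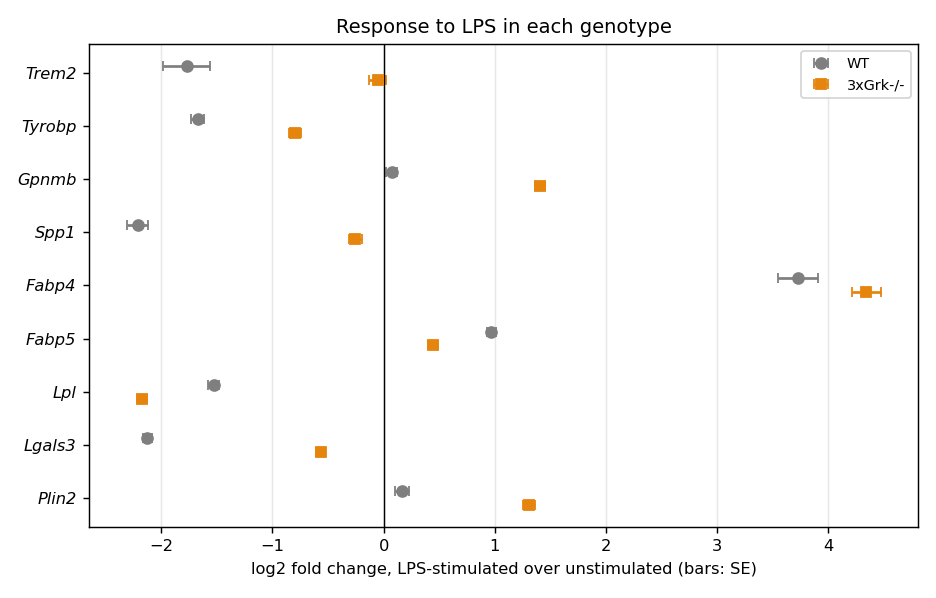
Log2 fold change of LPS-stimulated over unstimulated cells (x axis) for each gene (y axis), in WT (grey circles) and 3xGrk-/- cells (orange squares), with bars for the SE. Trem2, Spp1 and Lgals3 lie at -1.77, -2.21 and -2.12 in WT and at -0.05, -0.25 and -0.57 in 3xGrk-/- cells.

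Of 26 other genes known from lipid-associated macrophages, 24 were called higher and 2 lower in unstimulated 3xGrk-/- cells, and 25 were called higher with LPS. Their median log2 fold changes were 1.08 and 1.96. For this and the following lists, the shares over all genes tested are 22.1% higher and 22.7% lower without LPS and 24.7% and 24% with LPS, around medians near 0. The lists share genes, and 7 of these 26 are counted again below, which are Cd36, Lipa, Lgals1, Cd68, Itgax, Ctsk and Atp6v0d2. Without them 17 of 19 were called higher without and 18 of 19 with LPS. The largest without LPS were Apoe, which encodes the lipoprotein ligand apolipoprotein E, with 4.75 without and 4.17 with LPS, and Igf1, a growth factor gene, with 4.25 and 1.19. The largest with LPS were Ctsl, the gene of cathepsin L, a lysosomal protease, with 4.03 without and 5.98 with LPS, and Atp6v0d2, a subunit of the vacuolar proton pump, with 2.25 and 4.72. The genes called lower without LPS were Axl, a receptor for dying cells, with -0.75, and Psap, the precursor of saposins that help to degrade sphingolipids, with -0.10 without but 2.15 with LPS. Axl had -0.10 with LPS and was not called. Cd36, a scavenger receptor for oxidised lipoproteins, had 1.002 and 1.323, and the tetraspanin gene Cd9 had 0.85 and 0.86.

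Genes of signalling by TREM2 and DAP12 were less uniform, with 12 of 24 called higher and 7 lower without LPS and 14 higher and 4 lower with LPS, and medians of 0.15 and 0.27. Receptors that also use DAP12 headed the list without LPS, with Sirpb1c at 2.42 and Clec5a at 2.07. With LPS Sirpb1c at 4.37 and Sirpb1a, a related receptor, at 3.78 were the highest, and Clec5a was at 1.54. In LPS-stimulated WT libraries Sirpb1c had only 9 and 7 counts and Sirpb1a 2 and 3. Syk, the kinase that docks on DAP12, had 0.37 and 0.85, whereas Plcg2, a phospholipase downstream of it, had 0.10 and -0.17 and was not called. Hcst, which encodes the related adaptor DAP10, had -0.10, which was not called, and 1.67 with LPS. Adam10 and Adam17, proteases that shed TREM2 from the cell surface, had 0.18 and 0.28, and 0.38 and 0.54. Treml4, a TREM-like receptor, and Pik3cd, a phosphoinositide kinase subunit, were lower without LPS at -0.88 and -0.60. With LPS Pik3cd was at -0.91 and the adaptor gene Shc1 at -0.51.

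Among genes of lipid droplets and triglycerides, 9 of 16 tested were called higher and 2 lower without LPS, and 7 of 17 higher and 3 lower with LPS. The medians were 0.24 and 0.28. Hilpda, an inhibitor of the triglyceride lipase ATGL that sits on droplets, went from 2.15 to 6.76 CPM without LPS and from 4.06 to 95.3 CPM with LPS between WT and 3xGrk-/- cells, with log2 fold changes of 1.62 and 4.56. Acsl1, which activates long fatty acids for storage or oxidation, had 2.06 and 2.41. Pnpla2, which encodes ATGL itself, had -0.07, which was not called, and -0.31 with LPS. Acsl3 and Lpin1, which act in the synthesis of lipids, were lower without LPS at -1.25 and -0.88. With LPS Lpin1 was at -0.49 and the lipase gene Lipe at -0.39.

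The genes around fatty acid uptake, LPL and osteopontin held calls in both directions, in lists of 7 to 9 tested genes whose shares of lower calls lay near or below those over all genes in several cases, and nothing particular to these lists is read from the counts. Of 7 tested genes for fatty acid binding and uptake, 3 were called higher and 1 lower without LPS, and 3 higher and 2 lower with LPS. Slc27a3, an acyl-CoA synthetase gene, was lower at -1.12 and -2.39, and Acot7, a thioesterase gene, at -0.80 with LPS. Slc27a1 was higher at 0.71 and 1.85 and Slc27a4 at 0.28 and 1.04. Fabp3, another fatty acid binding protein gene, had too few reads for the test. Of 9 tested genes that handle lipases or their substrates, 4 were called higher and 2 lower without LPS, and 4 higher and 3 lower with LPS. Lrp1, a receptor for lipoprotein remnants, was higher at 3.17 and 1.13 and Lipa, the lysosomal acid lipase gene, at 0.81 and 1.97. Lipg, which encodes endothelial lipase, was lower at -1.75 and -1.41. Lmf1, which LPL needs for folding, had 0.07 and 0.43 and was not called, and Angptl4, an inhibitor of LPL, was not tested for want of reads. Of 7 genes of osteopontin receptors, 4 were called higher and 1 lower without LPS, and 3 higher and 1 lower with LPS. Cd44 was higher at 0.49 and 0.61 and the integrin gene Itgb5 at 1.42 and 0.77, while Itgb3 was lower without LPS at -0.69 and Itgb1 with LPS at -0.68.

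Of the other galectin genes and the galectin-3 binding protein, 5 of 6 were called higher and 1 lower without LPS, and 4 higher and 1 lower with LPS. Lgals8, whose product marks damaged vesicles, had 0.50 and 2.69, Lgals3bp had 0.61 and 1.81, and Lgals1 had 0.73 and 0.36. Without LPS Lgals4 had 0.84, from at most 25 counts in any library, and Lgals9 had 0.73. Lgalsl, a galectin-like gene, was lower at -0.48 and -1.54.

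The transcription factors that are known to act on the 9 genes were called higher in 10 of 16 cases without and in 12 of 16 with LPS, and lower in 2 and 1. Bhlhe41 had the largest difference, at 2.94 and 3.31, and Cebpb the next without LPS, at 2.47, and 3.08 with LPS. Mitf, which drives lysosome genes and Gpnmb, had 1.487 and 2.0003. Pparg, which drives Fabp4, Lpl and Plin2 in many cells, was lower without LPS at -1.21 and higher with LPS at 1.4996, from mean levels of 6.67 and 2.77 CPM, and of 0.827 and 2.40 CPM. Tfeb had -0.08, which was not called, and 0.53 with LPS, and Tfe3 had 0.26 and 0.43. Cebpa was lower without LPS at -0.53, and Ppard with LPS at -0.26.

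**Figure D5:**
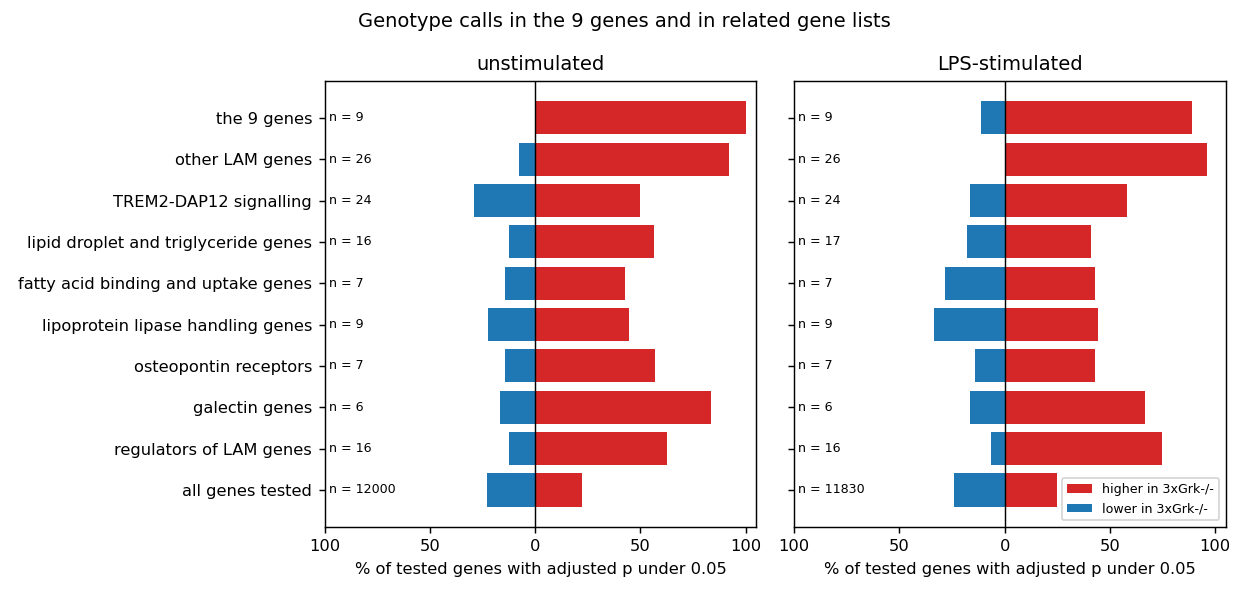
Share of tested genes (x axis, percent) that were called higher (red, to the right) or lower (blue, to the left) in 3xGrk-/- cells, for the 9 genes, for related lists and for all genes tested, without and with LPS, with n tested genes per list. All 9 genes are called higher without LPS, against 22.1% of all genes.

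Markers of other cells moved with the members, and their part in these results was not tested. Of 16 macrophage and monocyte genes, 10 were called higher and 5 lower without LPS and 15 higher with LPS. Their summed level was 2553 to 2569 CPM in unstimulated WT libraries, 8838 to 8876 CPM in unstimulated 3xGrk-/-, 820 to 859 CPM in LPS-stimulated WT and 7846 to 7952 CPM in LPS-stimulated 3xGrk-/- libraries. Lyz2, the lysozyme gene, had the largest share of this sum, with means of 1330 CPM in WT and 7080 CPM in 3xGrk-/- cells without LPS. The complement genes C1qa, C1qb and C1qc were lower without LPS, with log2 fold changes of -1.61, -1.94 and -1.88, and higher with LPS, with 2.77, 2.06 and 2.52. Vcam1, at -1.21, and Fcgr1, at -0.64, were the other macrophage and monocyte genes called lower without LPS. Of the genes of conventional dendritic cells, 5 of 16 tested were called higher and 10 lower without LPS, and 2 of 14 higher and 12 lower with LPS. The genes called higher without LPS were Clec9a, Flt3, Irf8, Ccr7 and Itgax, with log2 fold changes of 1.34, 0.95, 0.82, 0.24 and 0.19, and those with LPS were Itgax at 2.34 and Flt3 at 1.35. Clec9a had 6 and 15 counts in unstimulated WT and 24 and 30 in unstimulated 3xGrk-/- libraries. Among the genes called lower without LPS, Cd209a at -5.71 and Kmo at -1.75 had the largest changes. With LPS the lowest value of this list was -1.66. The summed level of the 17 genes listed was 26827 to 27062 CPM in unstimulated WT libraries and 14204 to 14467 CPM in unstimulated 3xGrk-/- libraries, and 18562 to 20169 against 15467 to 15782 CPM with LPS. Cd74 and the class II genes made up most of it, while Xcr1 had at most 2 counts in any library. Osteoclasts also express Spp1, and of 10 osteoclast genes tested, 7 were called higher and 2 lower without LPS and 6 higher and 3 lower with LPS, with medians of 1.22 and 2.08. This list was headed without LPS by Ctsk at 3.10, from 4 and 9 counts in unstimulated WT, and with LPS by Atp6v0d2 at 4.72. Both belong to the lipid-associated macrophage list too, and Itgb3 is among the osteopontin receptors. Without these shared genes 5 of 7 were called higher and 1 lower without LPS, with a median of 0.60, and 4 higher and 3 lower with LPS, with a median of 2.06. The summed level of the 12 genes listed was 607 to 627 CPM in unstimulated WT libraries and 1002 to 1022 CPM in unstimulated 3xGrk-/- libraries, and 1106 to 1137 against 852 to 858 CPM with LPS, with Calcr and Oscar at 3 counts or fewer everywhere. The lower sum in 3xGrk-/- cells with LPS went with Car2, a carbonic anhydrase gene, at means of 736 CPM in WT and 225 CPM in 3xGrk-/- cells, a log2 fold change of -1.71.

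Adipocytes express Fabp4, Lpl and Plin2, and 10 of 11 adipocyte genes had 3 counts or fewer in every library, with Plin1, Cfd, Lep, Cidec and Pck1 at 0. The list's summed level, which was nearly all from the remaining gene Lipe, was 131 to 203 CPM in the 8 libraries. Of 13 stromal genes, 4 could be tested without LPS, of which 1 was called higher and 1 lower, and of 9 tested with LPS 6 were called higher and 2 lower. Fn1 had 252 and 314 counts in unstimulated WT and 11801 and 10120 in unstimulated 3xGrk-/- libraries, and macrophages can also express it. Dcn was at 0 in all unstimulated libraries and had 13 and 7 counts in LPS-stimulated WT and 699 and 698 counts in LPS-stimulated 3xGrk-/- libraries. Lepr, the leptin receptor gene, was lower without LPS, with 107 and 155 counts in WT against 33 and 21 in 3xGrk-/- libraries. Lum, a matrix proteoglycan gene, was lower with LPS, with 78 and 56 against 42 and 43 counts. Eosinophil genes were at 1257 to 1330 CPM in unstimulated WT libraries and 67.0 to 74.5 CPM in unstimulated 3xGrk-/- libraries. With LPS they were at 1150 to 1251 CPM in WT and 82.9 to 88.9 CPM in 3xGrk-/- libraries. Of 8 tested, 7 were called lower without and 8 with LPS, against 22.7% and 24% of all genes.

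Finally, the genes with the most similar profiles over the 8 libraries were sought among 9150 genes by the root mean square difference of centred log2 CPM. Trem2 was closest to Tgfbi, which encodes a secreted matrix protein, at 0.265, and to Atp6v0d2 at 0.315. Spp1 was closest to Trem2 itself at 0.353 and then to Atp6v0d2 at 0.375. Gpnmb was closest to Sash1 at 0.156 and to Lhfpl2 at 0.280. Lpl was closest to Mmp9, a gelatinase gene, at 0.240 and to Clec5a at 0.285. Lgals3 was closest to H2-M2, a class I-like gene, at 0.135 and to Rassf8 at 0.146, and Plin2 to Ifnar2, an interferon receptor gene, at 0.123 and to the lysosomal phosphatase gene Acp2 at 0.128. Tyrobp and Fabp5 had closer neighbours, 5031439G07Rik at 0.0331 and Psme1 at 0.0378, followed by Evl at 0.0817 and Pbxip1 at 0.0439. Fabp4 was closest to Synpo2 at 0.339 and to Ifi204 at 0.399. Of the pairs of members, Tyrobp and Lgals3 were the closest at 0.330 and Spp1 and Fabp4 the farthest apart at 2.96. These points share libraries and scaling, and a small difference describes the profile of 4 groups only.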

How the data were processed

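RNA of 8 BMDC libraries was analysed, 2 for each combination of genotype and stimulation. Genotype, stimulation and replicate number came from the labels, and the dose of LPS and its duration from the study's methods. The 8 days of culture are those the study gives for the RNA experiment, and its general culture method allows a day more. The authors prepared stranded mRNA libraries, aligned the reads to mm10 (GRCm38) with STAR in the snakePipes workflow and counted them with featureCounts. The annotation release and the strand setting of the counting are not given in the sources used here. The values that the authors deposited are whole-number counts of reads per gene, without normalization, in 1 table per stimulation.

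Gene names, coordinates and exon lengths came from GENCODE M21 (GRCm38), which matched 47310 of the 47937 IDs once versions were dropped. The other IDs held 0.0468% of the counts. The 9 members were matched by symbol, and the members and all gene lists were chosen with earlier results of these data known, so that no list was tested as a set. Further genes named are the targeted kinases, genes whose products act directly on a member's product, in each list at most the 2 called genes with the largest change in each direction or all called genes of a direction where 5 or fewer were called, and the 2 nearest profiles of each member. Not every gene that meets these rules is named, and markers are also named for their part of a sum or their low counts.

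Genotypes were compared within each table (2 against 2 libraries), and responses to LPS and the interaction came from one fit of 8 libraries, with edgeR 4.0.16 (TMM, filterByExpr, glmQLFit, glmQLFTest) in R 4.3.3 and limma 3.58.1. The SE was taken from the log2 fold change and the F statistic, as their ratio after a square root of F. The scripts were tested on simulated counts. The exact permutation test of 2 against 2 libraries cannot give a p below 0.333 and was not used. No library was so close to its partner that it had to be counted as a copy. Counts were also fitted with DESeq2 1.42.0, other scalings and filters, a replicate block, a fixed coefficient of variation and without each library in turn.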

Additional observations from a re-analysis of the deposited data

Results flagged for a closer look

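For 8 of the 9 genes the difference between genotypes changed with LPS, by edgeR's test of the interaction itself, with Benjamini-Hochberg adjustment over 12541 genes, of which 16.5% were called above and 16% below 0. The values are the log2 fold change between genotypes with LPS minus that without. They were 1.72 for Trem2, 0.88 for Tyrobp, 1.34 for Gpnmb, 1.96 for Spp1, 1.56 for Lgals3 and 1.14 for Plin2, whose genotype differences were larger with LPS. The value was -0.64 for Lpl, whose difference was smaller with LPS, and -0.52 for Fabp5, whose difference changed its direction. The adjusted p ranged from 9.31e-18 for Lgals3 to 6.61e-07 for Trem2. With a coefficient of variation of 0.4 set for every gene, edgeR called the interaction for 0 of the 9 genes, and Trem2 and Spp1 had an unadjusted p under 0.05. DESeq2 called the same 8. Groups of 2 libraries are too small to look for a library that stands apart in a single gene.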

How the results depend on the processing

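Of 729 values of members under other settings, 675 kept their direction and their side of the threshold, 51 were no longer called, 1 was newly called and 2 changed sign, which were Gpnmb (-0.14) and Plin2 (-0.0523) with LPS in WT cells when scaled by library size only. The unstimulated genotype comparison called 5369 genes, that with LPS 5754, the response to LPS 7561 in WT and 6945 in 3xGrk-/- cells, and the interaction 4070. In the same order, a coefficient of variation of 0.4 for every gene left 448, 782, 1110, 850 and 72, and a log2 fold change of at least 1 left 1444, 1984, 2700, 2373 and 1375. DESeq2 called 2831 in the unstimulated comparison, 3663 with LPS and 2450 in the interaction. Plin2 in LPS-stimulated WT cells was no longer called with DESeq2 (adjusted p = 0.117), without a filter (0.0916), with at least 10 counts in every library (0.0680), with only the 4 WT libraries (0.0794), with a coefficient of variation of 0.4 (0.984), without the first unstimulated WT library (0.189) or without the second LPS-stimulated WT library (0.0720).

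Deviations of libraries with the same replicate number correlated between -0.065 and 0.072 over 9150 genes. As the spread of the typical gene was close to counting error in most groups, low correlations cannot show whether the libraries were paired. A fit with the replicate block called 5292, 5654, 7438, 6793 and 3884 genes, and all calls of members stayed as they were. Leaving out Gm42418, which had 149727 counts in the second and 26853 in the first LPS-stimulated 3xGrk-/- library, gave 5372, 5757, 7567, 6955 and 4075. With 2 libraries per group the spread is estimated mostly from all genes together. The common coefficient of variation was 0.0306 and 0.0573 in the genotype comparisons.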

Other observations

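The other genes of lipid-associated macrophages were described above by genotype, and their responses to LPS differed between genotypes as well. Of the 26 genes, the interaction was called above 0 for 17 and below 0 for 6, against 16.5% and 16% of all genes. Its median over the 26 genes was 0.79. Psap went from 5049 to 1993 CPM with LPS in WT cells and from 4706 to 8878 CPM in 3xGrk-/- cells, an interaction of 2.26, and Atp6v0d2 had 2.47. Igf1 had the lowest value, -3.06, as it rose with LPS in WT cells by 2.99, whereas in 3xGrk-/- cells its log2 fold change was -0.06 and was not called. The 16 macrophage and monocyte genes had an interaction called above 0 in 15 cases and below 0 for Ly6c2 (-0.76), a gene of classical monocytes. The shares over all genes are again 16.5% and 16%.

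Genes of neutrophils were called lower in 3xGrk-/- cells in 7 of 12 cases without and in 7 of 11 with LPS. Over all genes tested, 22.7% and 24% were called lower. Higher calls were 1 of 12 and 2 of 11, against 22.1% and 24.7% of all genes. Mpo had the lowest value without LPS, -1.68, and Camp, which encodes an antimicrobial peptide, had -1.14 and -1.37. Mmp8, a collagenase gene on the same list, was higher with 2.84 and 3.85, from 104.6 to 750.1 CPM without LPS. The summed level of the list, Mmp8 included, was 849 to 895 CPM in unstimulated WT and 1287 to 1320 CPM in unstimulated 3xGrk-/- libraries. With LPS it was 380 to 436 CPM in WT and 576 to 604 CPM in 3xGrk-/- libraries. Of 12 lymphocyte genes and 8 erythroid genes, 1 each had enough reads for the test, which were Cd8a, with -2.22 without and -3.94 with LPS, and Hbb-bt, which was higher without LPS at 1.31 and lower with LPS at -1.58. With LPS Cd8a had 19 and 16 counts in WT and 1 and 1 in 3xGrk-/- libraries.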
